A study of Arabidopsis thaliana with 8 samples.

Results

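The genes described here are the plastid-encoded genes of Arabidopsis thaliana that serve gene expression and functions outside the photosynthetic complexes. They were taken as every probe set of the ATH1 array annotated to a single plastid gene named rpo, rps, rpl, matK, accD, clpP, ccsA, cemA or ycf. This gave 26 of the 22810 probe sets, each for a different gene. They comprised 4 genes of the plastid RNA polymerase, 8 of the small and 7 of the large ribosomal subunit, and 7 other genes.

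Seedlings of the Columbia-0 ecotype, 7 days old, were moved to 38 °C for 45 min or were frozen straight from the 22 °C growth chamber. From each seedling sample polysome-bound mRNA (PB), taken from the heavy fractions of a sucrose gradient, and total mRNA (TOT) were hybridized. The 4 groups PB38, PB22, TOT38 and TOT22 held 2 arrays each, from 2 seedling samples per temperature. The labels call these biological replicates, and with 2 per group the precision is limited by their number. Whole seedlings were extracted, so fewer green cells and less plastid RNA per cell cannot be told apart. The extraction buffer held cycloheximide and chloramphenicol, which stop cytosolic and plastid ribosomes on their messages.

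Chloroplasts keep a small genome of bacterial descent. Its genes are read by a bacterial-type RNA polymerase, whose core subunits are plastid-encoded, and by phage-type RNA polymerases imported from the cytosol. Many plastid genes are transcribed together as long precursors that are then cut, spliced and trimmed. Their messages are translated by bacterial-type ribosomes, for which the plastid supplies only some of the proteins and the nucleus the rest. Plastid messages mostly lack stable poly(A) tails, while the standard Affymetrix labelling named in the labels primes on such tails. How fully each plastid message was labelled is therefore not known from these data.

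The deposited values are log2 signals after robust multi-array averaging (RMA). The PB38 arrays also carry a factor by which the authors lowered all signals for the loss of polysomes in the heat, and their array means were 5.30 and 5.25, against 6.15 to 6.18 on the other 6 arrays. The factor was kept for the heat effect in polysome-bound mRNA and was divided out wherever PB38 was set against TOT38. Values are given for replicate 1 and then replicate 2.

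The 2 seedling samples of 22 °C differed strongly in these genes. In PB22 replicate 1 was above replicate 2 for 24 of 26 genes, by a median of 1.05 on the log2 scale. In TOT22 it was above for 26 of 26, by a median of 1.17, and by more than 1 for 16 of them. The gap was smaller at 38 °C, with medians of 0.10 in PB38 and 0.50 in TOT38. Over all probe sets the gap in TOT22 ran from -0.62 at the 5th to 0.51 at the 95th percentile. The 43 plastid-encoded photosynthesis genes had median gaps of 0.01 in PB38, 0.75 in PB22, 0.33 in TOT38 and 1.09 in TOT22. The 25S rRNA control probe set, which reads another RNA without a poly(A) tail, had a gap of 2.13 in TOT22. Its level was 9.36 and 10.08 in PB38 and 6.83 and 6.46 in PB22, and 11.96 and 12.23 in TOT38 and 11.13 and 9.00 in TOT22. It moved with the sample, the temperature and the RNA population, and its part in the results below was not tested.

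**Figure D1:**
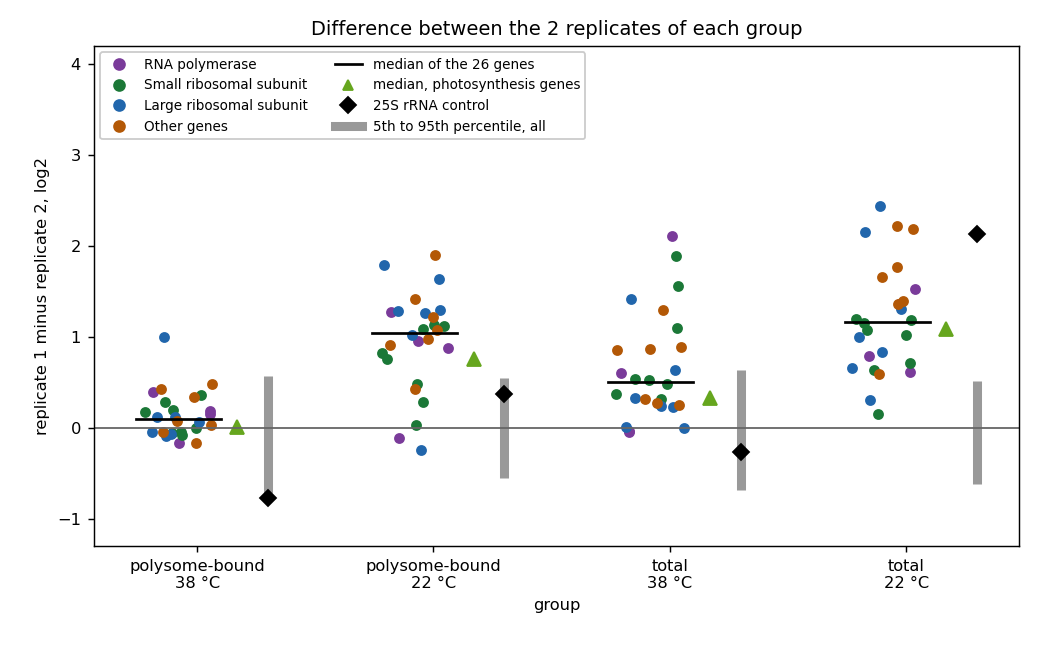
Replicate 1 minus replicate 2 on the log2 scale (y axis) for each of the 26 genes in the 4 groups (x axis), with PB38 free of the polysome factor; black lines are medians over the 26 genes, triangles the medians over the plastid photosynthesis genes, diamonds the 25S rRNA control and grey bars the range from the 5th to the 95th percentile of all probe sets. The medians were 0.10 in PB38, 1.05 in PB22, 0.50 in TOT38 and 1.17 in TOT22.

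Signals of the 26 genes ran between 2.27 and 11.40 in PB38, 3.10 and 12.38 in PB22, 3.78 and 12.61 in TOT38, and 3.06 and 12.83 in TOT22. Their array medians were 8.52 and 8.27 in PB38, 9.07 and 7.78 in PB22, 10.18 and 9.65 in TOT38, and 10.43 and 9.02 in TOT22. Most of them were far above the bacterial trp control probe sets, for which seedlings hold no message and of which the highest read between 2.27 and 3.43. Only rpoB came down to the highest of these controls, in 1 array, and rpoB and rps14 lay within 1 log2 unit of it in 6 arrays each. The green tissue marker LHCB4.1, a light-harvesting protein and the only one of 5 such markers matched to a probe set here, read 12.43 and 12.21 in PB38 and 13.81 and 13.85 in PB22, and 13.65 and 13.71 in TOT38 and 13.89 and 13.78 in TOT22. With the factor kept it was called lower in PB38 than in PB22 (-1.51, adjusted p 0.000194 in limma), and its part in the heat effects of the plastid genes was not tested. The root markers EXPA7 and EXPA18 read 5.24 to 7.11 and 5.16 to 6.96.

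**Figure D2:**
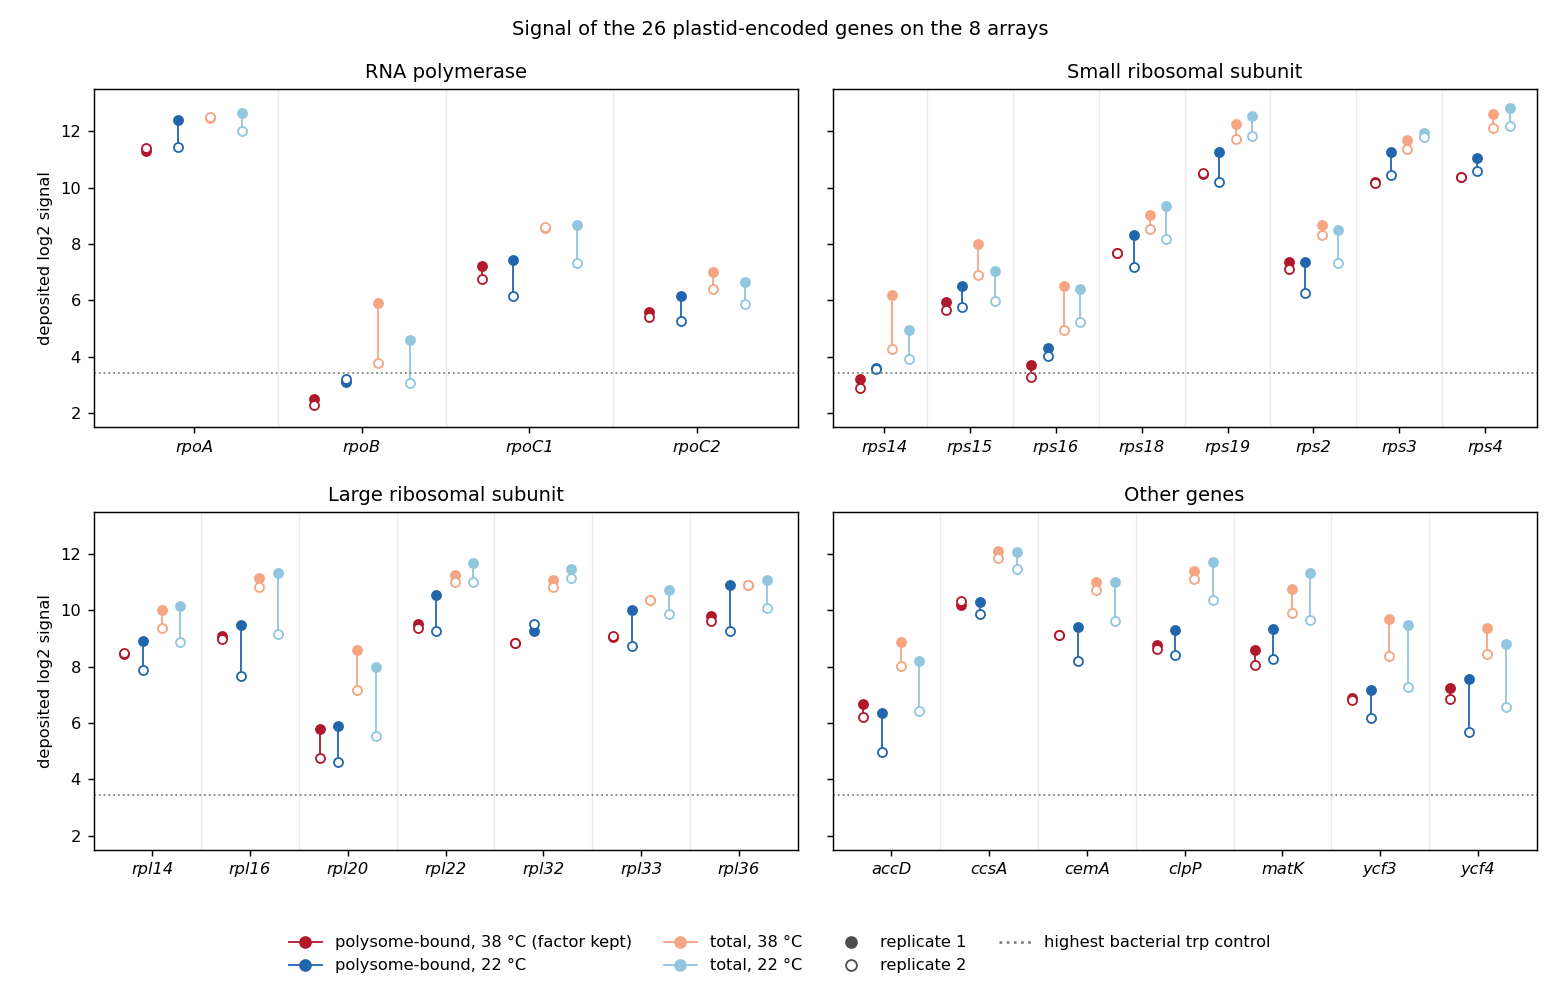
Deposited log2 signal (y axis) of each of the 26 genes (x axis) in PB38, PB22, TOT38 and TOT22, with filled points for replicate 1, open points for replicate 2 and a dotted line at 3.43, the highest bacterial trp control of any array. Open points of TOT22 lie below the filled ones for all 26 genes, and within a seedling sample the PB point lies below the TOT point except for rpoB in 22 °C sample 2.

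Comparing polysome-bound with total mRNA asks how much of each message was carried in the polysomal fractions, relative to the average message on the array. All 26 genes were lower in polysome-bound than in total mRNA at both temperatures. At 22 °C the median difference was -1.32 on the log2 scale, a level 2.49-fold lower in PB22 than in TOT22, and the 26 values ran from -2.18 for clpP to -0.38 for rps15. At 38 °C it was -0.86, a level 1.81-fold lower in PB38 than in TOT38, with values from -1.75 for rpl20 to -0.24 for rps18. The median over all probe sets was 0.00 at both temperatures. Within seedling samples, 26 and 25 of the 26 genes were lower in polysome-bound mRNA at 38 °C, and 26 and 25 at 22 °C. The exceptions were rps18, 0.05 higher in 38 °C sample 2, and rpoB, 0.15 higher in 22 °C sample 2, where both of its signals lay near background. Thus 24 of 26 genes were lower in all 4 seedling samples, as were 15.4% of all probe sets and 39 of the 43 photosynthesis genes.

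At 22 °C the limma fit without a block called 0 of 26 genes (an adjusted p below 0.05 with a change of 2-fold or more). It called 0.0% of all probe sets in either direction. An unadjusted p under 0.05 was reached by 12 of the 26, beside 793 of 22810 probe sets higher and 1108 lower. Both RNA populations came from the same seedling samples, whose deviations ran together, and with the seedling sample as a block 19 of 26 genes were called lower in PB22 than in TOT22, beside 0.688% of all probe sets lower and 0.0351% higher. These 19 were 1 of 4 polymerase genes, 6 of 8 small subunit genes, 5 of 7 large subunit genes and 7 of 7 other genes. In the same fit 23 of the 43 photosynthesis genes were called lower, and their median difference was -1.09. With any 1 of the 4 seedling samples left out, 1 residual degree of freedom remained and neither any of the 26 genes nor any other probe set was called (0.0%), with medians of the 26 genes between -1.32 and -1.15.

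At 38 °C the fit without a block called 1 of 26 genes lower in PB38 than in TOT38, rpl32, beside 0.649% of all probe sets lower and 0.0921% higher. With any 1 of the 8 arrays left out this call was lost, and 0.0% of all probe sets were called. With the seedling sample as a block 11 of 26 were called lower, beside 1.34% of all probe sets lower and 0.307% higher. They were rpoB, rps4, rps14, rps16, rpl16, rpl20, rpl32, accD, clpP, matK and ycf3. Without either 38 °C sample 0 of 26 and 0.0% of all probe sets were called, with medians of -0.66 and -1.14 against -0.86 with both. In the fit with the block 17 of the 43 photosynthesis genes were called lower, with a median of -0.71. The 25S rRNA control was also lower in polysome-bound RNA, with differences of -1.76 and -1.26 in the 38 °C samples and -4.30 and -2.54 in the 22 °C samples, and its part was not tested.

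**Figure D3:**
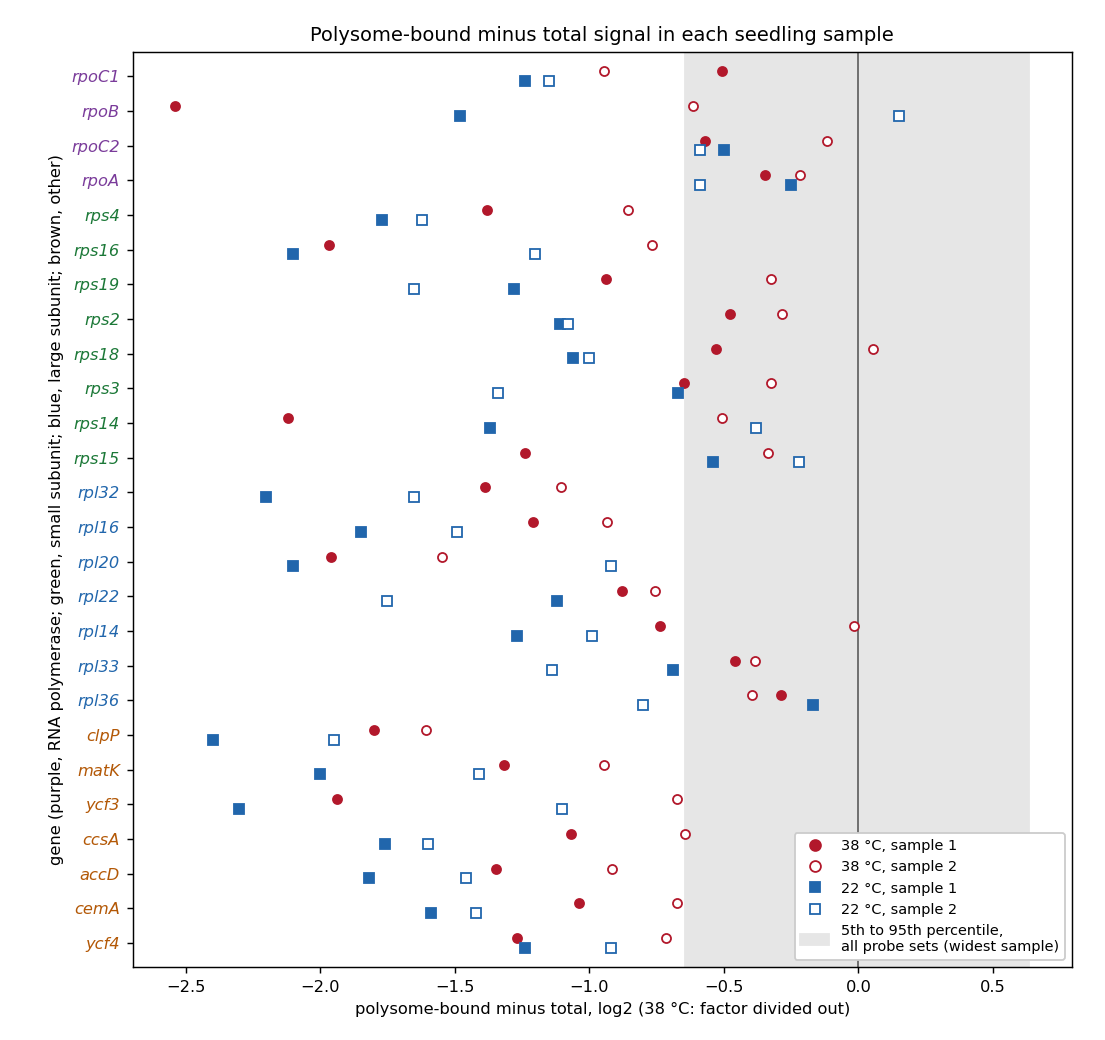
Polysome-bound minus total signal on the log2 scale (x axis) of each of the 26 genes (y axis, grouped by role) in the 4 seedling samples, red circles for 38 °C and blue squares for 22 °C, with the range from the 5th to the 95th percentile of all probe sets in grey (the widest over the samples, -0.65 to 0.63). All but 2 of the points lie left of 0, with rps18 in 38 °C sample 2 and rpoB in 22 °C sample 2 to its right.

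The heat effect compares 38 °C with 22 °C within an RNA population. In polysome-bound mRNA, with the polysome factor kept, 0 of 26 genes were called, beside 2.07% of all probe sets higher and 37.1% lower. Of the 26 only rpl32 and rps3 had an unadjusted p under 0.05, beside 705 of 22810 probe sets higher and 18395 lower. The median effect was -0.24, against -0.85 for all probe sets and -0.14 for the photosynthesis genes. Both PB38 arrays lay below both PB22 arrays for 7 genes (rpoA, rpoB, rps3, rps4, rps14, rps16 and rpl32), as they did for 87.2% of all probe sets, and above for none of the 26, against 4.26%. Without 22 °C sample 2 the median was -0.63 and 4 genes were called lower, namely rpoA, rps3, rpl22 and rpl36, beside 37.0% of all probe sets. With the factor divided out the median was 0.63 against 0.02 for all probe sets. Then both PB38 arrays lay above both PB22 arrays for 17 genes, as for 31.7% of all probe sets, and below for none, against 31.1%. In that fit ccsA was called higher (1.03, adjusted p 0.0237 in limma), beside 4.73% of all probe sets higher and 6.49% lower.

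In total mRNA 0 of 26 genes were called in either direction, beside 4.63% of all probe sets higher and 7.06% lower. An unadjusted p under 0.05 was reached by 0 of 26, against 3883 of 22810 probe sets higher and 4834 lower. The effects of the 26 genes ran from -0.35 for rpl32 to 1.22 for ycf4. Their median was 0.29, against 0.03 for all probe sets and 0.51 for the photosynthesis genes. In no gene did both TOT38 arrays lie above both TOT22 arrays, as they did for 35.0% of all probe sets. Both lay below in rpl32 and rps3, as for 31.9% of all probe sets. The median depended on a single seedling sample: it was -0.25 without 22 °C sample 2 and 0.84 without the total mRNA array of 22 °C sample 1. With array TOT38 replicate 2 left out, rps14 was called higher (1.73, adjusted p 0.0396 in limma), beside 4.6% of all probe sets.

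**Figure D4:**
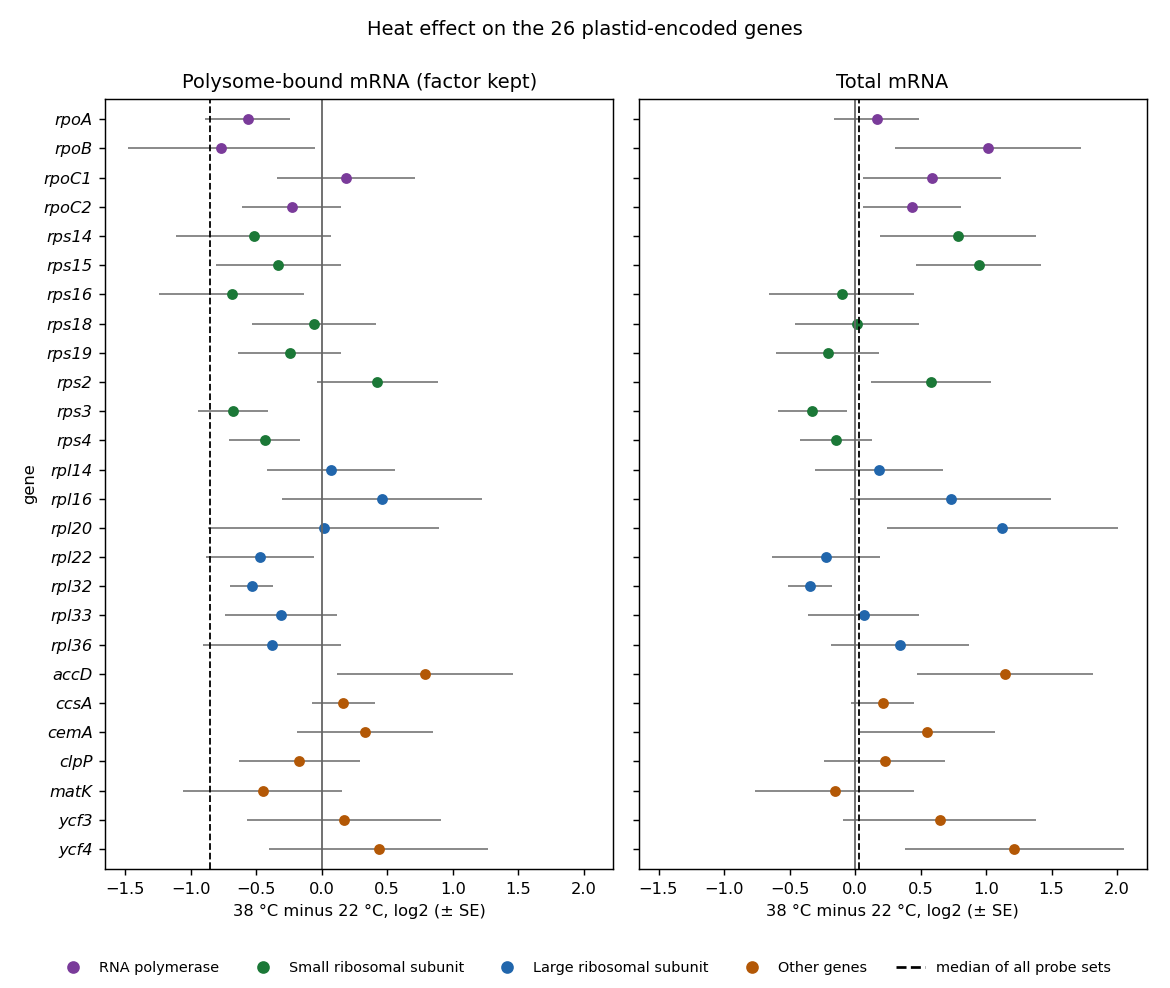
Heat effect (38 °C minus 22 °C, log2, ± SE from limma, 2 arrays per group; x axis) of each of the 26 genes (y axis) in polysome-bound mRNA with the factor kept and in total mRNA, coloured by role, with the median of all probe sets dashed (-0.85 in polysome-bound, 0.03 in total mRNA). None of the 26 effects was called.

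The signed heat effect in total mRNA was lower for brighter probe sets. Across the 26 genes Pearson's r with the mean signal in total mRNA was -0.62 and Spearman's rho -0.65. The effect and the mean are both computed from the same 4 arrays and so are not independent, and this is a description only. The 13 genes with a mean of at least 10 had a median effect of 0.07, and the 13 under 10 had 0.65. The dimmer genes also had the larger gap between the TOT22 replicates, with a median of 1.30 against 0.71.

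The difference between the heat effects, polysome-bound minus total with the factor divided out, was above 0 in 22 of 26 genes, with a median of 0.50. The median over all probe sets was 0.01 and that over the photosynthesis genes 0.28. None of the 26 was called by limma without a block (0.0% of all probe sets). An unadjusted p under 0.05 was reached by 2 of 26, beside 549 of 22810 probe sets higher and 783 lower. With the seedling sample as a block 0 of 26 were again called, beside 0.39% of all probe sets higher and 0.973% lower. There 16 of 26 had an unadjusted p under 0.05, beside 2480 of 22810 probe sets higher and 2152 lower. The lowest adjusted p in that fit were 0.0575 for rps2 and 0.0577 for ccsA. The 4 genes below 0 were rpoB, rps14, rps15 and rpl20. The median was -0.06 without the PB22 array of sample 2 and -0.20 without the TOT22 array of sample 1.

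The polymerase genes encode the core of the bacterial-type plastid enzyme, with rpoA for the alpha subunit, rpoB for beta, rpoC1 for beta′ and rpoC2 for beta″. The rpoA signal was 11.28 and 11.40 in PB38 and 12.38 and 11.43 in PB22, and 12.47 and 12.51 in TOT38 and 12.63 and 12.02 in TOT22. With the factor kept both PB38 arrays lay below both PB22 arrays, as for 87.2% of all probe sets, while the total mRNA groups overlapped. Its heat effect was -0.57 ± 0.33 (SE) in polysome-bound and 0.17 ± 0.33 in total mRNA, and its polysome-bound minus total difference was -0.28 at 38 °C and -0.42 at 22 °C, the least negative at 22 °C after rps15.

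The rpoB signal was close to background on several arrays. It was 2.51 and 2.27 in PB38 and 3.10 and 3.21 in PB22, and 5.89 and 3.78 in TOT38 and 4.58 and 3.06 in TOT22. In polysome-bound mRNA it thus stayed next to the trp controls, and the replicates of total mRNA were 2.11 apart at 38 °C and 1.52 apart at 22 °C. The polysome-bound minus total difference was -2.54 and -0.62 in the 38 °C samples and -1.48 and 0.15 in the 22 °C samples. Because the polysome-bound signals were not separated from background, these differences and the call with the block at 38 °C (adjusted p 0.024 in limma, against 0.361 at 22 °C) do not measure the size of the depletion.

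The rpoC1 signal was 7.20 and 6.76 in PB38 and 7.43 and 6.16 in PB22, and 8.55 and 8.60 in TOT38 and 8.67 and 7.31 in TOT22. The 38 °C values lay between the 22 °C values in both populations with the factor kept. With it divided out both PB38 values lay above both PB22 values. With the block rpoC1 was the only polymerase gene called at 22 °C, at -1.20 ± 0.13 (SE, adjusted p 0.000692 in limma). The rpoC2 signal was 5.59 and 5.39 in PB38 and 6.16 and 5.28 in PB22, and 7.00 and 6.40 in TOT38 and 6.66 and 5.87 in TOT22. Groups overlapped within each population with the factor kept, while with it divided out both PB38 arrays lay above both PB22 arrays. The polysome-bound minus total difference of rpoC2 was -0.34 at 38 °C and -0.55 at 22 °C, neither of them called. At 22 °C it missed only the 2-fold threshold with the block (adjusted p 0.0261 in limma). Over the 4 polymerase genes the median difference was -0.53 at 38 °C and -0.61 at 22 °C.

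Among the small subunit proteins, rps4 encodes an assembly protein that binds the ribosomal RNA early, and rps3, rps14 and rps19 encode proteins of the head of the subunit. The rps4 signal was 10.39 and 10.38 in PB38 and 11.06 and 10.58 in PB22, and 12.61 and 12.13 in TOT38 and 12.83 and 12.20 in TOT22. Its polysome-bound minus total difference was -1.38 and -0.86 in the 38 °C samples and -1.77 and -1.62 in the 22 °C samples. It was called with the block at 38 °C (adjusted p 0.000791 in limma) and at 22 °C (adjusted p 9.0e-05). The rps3 signal was 10.21 and 10.16 in PB38 and 11.27 and 10.45 in PB22, and 11.70 and 11.38 in TOT38 and 11.94 and 11.79 in TOT22. With the factor kept both 38 °C arrays lay below both 22 °C arrays in both populations. In polysome-bound mRNA 87.2% of all probe sets did so, and in total mRNA 31.9%. The effects of rps3 were -0.68 ± 0.27 (SE, adjusted p 0.0472 in limma, under 2-fold) in polysome-bound and -0.33 ± 0.27 (adjusted p 0.401) in total mRNA. With the factor divided out the polysome-bound effect was 0.19 and the groups overlapped.

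The rps2 signal was 7.35 and 7.12 in PB38 and 7.37 and 6.25 in PB22, and 8.67 and 8.30 in TOT38 and 8.48 and 7.33 in TOT22. Its polysome-bound minus total difference was close in the 22 °C samples, -1.11 and -1.08, and closer to 0 in both 38 °C samples, -0.48 and -0.29. The rps19 signal was 10.47 and 10.50 in PB38 and 11.27 and 10.19 in PB22, and 12.25 and 11.72 in TOT38 and 12.55 and 11.84 in TOT22. Its difference was -0.94 and -0.33 in the 38 °C samples and -1.28 and -1.65 in the 22 °C samples. The difference between the heat effects was the highest of the 26 genes for rps19, 0.83 ± 0.22 (SE) with the block, and it did not pass the test (adjusted p 0.0846 in limma).

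The rps15 and rps18 proteins belong to the platform of the small subunit. The rps18 signal was 7.67 and 7.68 in PB38 and 8.30 and 7.17 in PB22, and 9.04 and 8.52 in TOT38 and 9.36 and 8.17 in TOT22. The 38 °C values lay between the 22 °C values in both populations with the factor kept. With it divided out both PB38 values lay above both PB22 values. The rps18 gene was called lower in polysome-bound mRNA at 22 °C with the block (-1.03, adjusted p 0.002 in limma). It had the smallest difference at 38 °C (-0.24, adjusted p 0.278). The difference between the temperatures was not called (adjusted p 0.0764 in limma with the block). The rps15 signal was 5.92 and 5.67 in PB38 and 6.50 and 5.75 in PB22, and 8.00 and 6.90 in TOT38 and 7.04 and 5.97 in TOT22. Its heat effect of 0.95 ± 0.48 (SE) in total mRNA was the highest of the small subunit genes, and its adjusted p of 0.191 in limma missed the threshold.

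The intron-containing rps16 read 3.69 and 3.28 in PB38 and 4.31 and 4.03 in PB22, and 6.50 and 4.94 in TOT38 and 6.41 and 5.23 in TOT22. The rps14 signal was 3.21 and 2.88 in PB38 and 3.58 and 3.55 in PB22, and 6.17 and 4.28 in TOT38 and 4.95 and 3.93 in TOT22. Both were dim, and the TOT38 replicates of rps14 were 1.89 apart. The polysome-bound signals of rps14 lay next to the highest trp controls, which read 2.41 and 2.27 in PB38 and 3.05 and 3.01 in PB22. As for rpoB, the rps14 differences therefore do not measure the size of the depletion. The rps16 signals came as close as 1.01 to the highest trp control of an array, so their differences are also uncertain in size. With the block rps16 was called lower in polysome-bound mRNA at both temperatures (-1.37 at 38 °C and -1.65 at 22 °C), and rps14 at 38 °C alone (-1.31, against -0.88 at 22 °C), though the difference between these was not called (-0.44, adjusted p 0.63 in limma with the block).

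Of the large subunit genes, rpl32 had the closest replicates at 22 °C. Its signal was 8.84 and 8.84 in PB38 and 9.25 and 9.50 in PB22, and 11.07 and 10.84 in TOT38 and 11.45 and 11.15 in TOT22. As for rps3, both 38 °C arrays lay below both 22 °C arrays in both populations with the factor kept. The effects were -0.54 ± 0.17 (SE, adjusted p 0.0199 in limma, under 2-fold) in polysome-bound and -0.35 ± 0.17 (adjusted p 0.174) in total mRNA. The median over all probe sets was -0.85 in polysome-bound mRNA. With the factor divided out the rpl32 effect there was 0.33, and both PB38 arrays lay above both PB22 arrays. The polysome-bound minus total difference of rpl32 was -1.39 and -1.11 in the 38 °C samples and -2.20 and -1.65 in the 22 °C samples. Without the block the adjusted p in limma was 0.0387 at 38 °C and 0.0602 at 22 °C.

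In bacteria the protein of rpl16 sits near the tRNA sites, and that of rpl20 is needed for early assembly of the large subunit. The rpl16 signal was 9.09 and 8.98 in PB38 and 9.47 and 7.68 in PB22, and 11.14 and 10.81 in TOT38 and 11.32 and 9.17 in TOT22. The rpl20 signal was 5.79 and 4.74 in PB38 and 5.88 and 4.62 in PB22, and 8.59 and 7.18 in TOT38 and 7.98 and 5.54 in TOT22. The replicates of these genes were far apart at 22 °C, by 2.15 for rpl16 and 2.44 for rpl20 in TOT22, while the polysome-bound minus total difference kept its sign in each sample. For rpl20 it was -1.96 and -1.55 in the 38 °C samples and -2.10 and -0.92 in the 22 °C samples, and its heat effect of 1.13 ± 0.88 (SE) in total mRNA was the highest of the large subunit genes (adjusted p 0.382 in limma).

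The protein of rpl22 lines the tunnel through which the new chain leaves, and that of rpl14 lies at the interface with the small subunit. The rpl22 signal was 9.52 and 9.35 in PB38 and 10.55 and 9.26 in PB22, and 11.24 and 11.00 in TOT38 and 11.67 and 11.01 in TOT22. The rpl14 signal was 8.43 and 8.47 in PB38 and 8.89 and 7.87 in PB22, and 10.01 and 9.38 in TOT38 and 10.16 and 8.86 in TOT22. Both were called lower in polysome-bound mRNA at 22 °C with the block (-1.44 for rpl22 and -1.13 for rpl14). Neither was called at 38 °C. There rpl22 missed only the 2-fold threshold (-0.82, adjusted p 0.00454 in limma), while rpl14 was at -0.38 (adjusted p 0.136). The difference between the temperatures was not called for either gene (adjusted p 0.143 for rpl22 and 0.116 for rpl14 in limma with the block). In tobacco rpl33 is dispensable at normal temperature but needed in the cold. The rpl33 signal was 9.05 and 9.07 in PB38 and 10.01 and 8.73 in PB22, and 10.35 and 10.35 in TOT38 and 10.70 and 9.87 in TOT22. The rpl36 signal was 9.78 and 9.61 in PB38 and 10.89 and 9.26 in PB22, and 10.91 and 10.90 in TOT38 and 11.06 and 10.06 in TOT22. These last genes were the large subunit genes called at neither temperature. Their differences were -0.42 at 38 °C and -0.92 at 22 °C for rpl33, and -0.34 at 38 °C and -0.49 at 22 °C for rpl36. For rpl33 only the 2-fold threshold was missed (adjusted p 0.044 at 38 °C and 0.00288 at 22 °C in limma with the block).

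Of the other genes, clpP encodes a catalytic subunit of the Clp protease of the stroma. The accD gene encodes a subunit of the plastid acetyl-CoA carboxylase, the entry enzyme of fatty acid synthesis. The clpP signal was 8.75 and 8.62 in PB38 and 9.31 and 8.40 in PB22, and 11.39 and 11.12 in TOT38 and 11.71 and 10.35 in TOT22. It was the gene most depleted from polysome-bound mRNA at 22 °C, 4.52-fold (-2.18 ± 0.13, SE, adjusted p 1.9e-05 in limma with the block), and it was 3.25-fold lower at 38 °C (-1.70 ± 0.13, adjusted p 0.000132). The accD signal was 6.68 and 6.20 in PB38 and 6.36 and 4.95 in PB22, and 8.87 and 8.01 in TOT38 and 8.18 and 6.41 in TOT22. Its heat effect was 0.79 ± 0.67 (SE) in polysome-bound mRNA, the highest of the 26 genes there (adjusted p 0.301 in limma), and 1.15 ± 0.67 in total mRNA (adjusted p 0.252).

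The matK gene lies within the intron of a lysine tRNA gene and encodes a maturase that assists the splicing of plastid group II introns. Its signal was 8.60 and 8.07 in PB38 and 9.32 and 8.25 in PB22, and 10.76 and 9.91 in TOT38 and 11.32 and 9.66 in TOT22. With the block it was called lower in polysome-bound mRNA at 38 °C (-1.13) and at 22 °C (-1.71). The ccsA gene, for a protein of heme attachment to c-type cytochromes, read 10.19 and 10.31 in PB38 and 10.30 and 9.87 in PB22, and 12.10 and 11.85 in TOT38 and 12.06 and 11.47 in TOT22. Its polysome-bound minus total difference was -1.07 and -0.65 in the 38 °C samples, and -1.76 and -1.60 in the 22 °C samples. It was called at 22 °C with the block and stayed under 2-fold at 38 °C.

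The genes ycf3 and ycf4 encode assembly factors of photosystem I, and cemA a protein of the chloroplast envelope. The ycf3 signal was 6.89 and 6.81 in PB38 and 7.17 and 6.19 in PB22, and 9.67 and 8.38 in TOT38 and 9.47 and 7.29 in TOT22. Its polysome-bound minus total difference was -1.94 and -0.68 in the 38 °C samples and -2.30 and -1.1 in the 22 °C samples, each time further from 0 in sample 1. The ycf4 signal was 7.24 and 6.85 in PB38 and 7.56 and 5.66 in PB22, and 9.35 and 8.46 in TOT38 and 8.80 and 6.58 in TOT22. Its heat effect in total mRNA, 1.22 ± 0.83 (SE), was the highest of the 26 genes, and the TOT22 replicates were 2.22 apart (adjusted p 0.321 in limma). The cemA signal was 9.13 and 9.13 in PB38 and 9.41 and 8.19 in PB22, and 11.01 and 10.70 in TOT38 and 11.00 and 9.61 in TOT22, with differences of -0.86 at 38 °C and -1.51 at 22 °C.

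By role, the median polysome-bound minus total difference at 38 °C was -0.53 for the polymerase genes, -0.71 for the small subunit, -0.82 for the large subunit and -1.13 for the other genes. At 22 °C it was -0.61 for the polymerase genes, -1.06 for the small subunit, -1.44 for the large subunit and -1.68 for the other genes. The order was the same at both temperatures, while the ranges of the roles overlapped. The median heat effect in polysome-bound mRNA was -0.40 for the polymerase genes, -0.38 for the small subunit, -0.31 for the large subunit and 0.17 for the other genes. In total mRNA it was 0.51 for the polymerase genes, -0.04 for the small subunit, 0.19 for the large subunit and 0.55 for the other genes. These are descriptions over genes and carry no test.

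Several of the genes are transcribed together. The long ribosomal cluster that ends in rpoA holds 7 of the 26 genes, given here in gene order. At 38 °C the polysome-bound minus total difference was -0.63 for rps19, -0.82 for rpl22, -0.49 for rps3 and -1.07 for rpl16. It was -0.38 for rpl14, -0.34 for rpl36 and -0.28 for rpoA. At 22 °C it was -1.47 for rps19, -1.44 for rpl22, -1.01 for rps3, -1.67 for rpl16, -1.13 for rpl14, -0.49 for rpl36 and -0.42 for rpoA. The last of these 7 genes, rpl36 and rpoA, had the values closest to 0 among them at both temperatures. The cluster also holds rpl23 and rpl2, whose probe sets are listed under 2 copies and were not counted. At 22 °C their differences were -1.03 for rpl23 and -0.64 for rpl2. The heat effects in total mRNA had both signs within the cluster, from -0.33 for rps3 to 0.73 for rpl16. In the accD, ycf4 and cemA cluster they were above 0 for all 3 genes, at 1.15 for accD, 1.22 for ycf4 and 0.55 for cemA, with no call.

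Of 33 listed nuclear genes for plastid ribosomal proteins 9 were matched to a probe set listed with 1 gene. In polysome-bound mRNA 8 of the 9 were called lower at 38 °C, beside 37.1% of all probe sets. Their median heat effect was -1.64, against -0.33 for the 15 plastid-encoded ribosomal genes and -0.85 for all probe sets. In total mRNA 0 of the 9 were called, with a median of -0.17. Their extremes in total mRNA were PRPL17 and PRPL19a. PRPL17 read 11.57 and 11.48 in PB38 and 12.52 and 12.42 in PB22, and 12.33 and 12.29 in TOT38 and 12.38 and 12.11 in TOT22. PRPL19a read 9.35 and 8.43 in PB38 and 11.06 and 10.86 in PB22, and 10.31 and 10.08 in TOT38 and 10.82 and 10.62 in TOT22. The replicates of these nuclear messages were close at 22 °C, and their median polysome-bound minus total difference was -0.27 at 38 °C and 0.21 at 22 °C. The plastid-encoded ribosomal genes had -0.79 at 38 °C and -1.13 at 22 °C.

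Of 8 nuclear genes of plastid transcription only RPOTmp, a phage-type RNA polymerase, was matched. It read 4.08 and 3.92 in PB38 and 4.88 and 5.00 in PB22, and 4.86 and 4.73 in TOT38 and 5.08 and 5.08 in TOT22. It was not called in any comparison. Its heat effect in polysome-bound mRNA with the factor kept missed only the 2-fold threshold (-0.94, adjusted p 0.000826 in limma). Of 13 nuclear Clp and acetyl-CoA carboxylase genes CLPP4 and CLPR3, both of the Clp protease core, were matched, and neither was called. Their heat effects were -0.56 for CLPP4 and -0.59 for CLPR3 in polysome-bound mRNA, and 0.00 for CLPP4 and 0.14 for CLPR3 in total mRNA. In polysome-bound mRNA both missed only the 2-fold threshold (adjusted p 0.00976 for CLPP4 and 0.00486 for CLPR3 in limma). The median over all probe sets there was -0.85. None of the 12 listed proteins that associate with the plastid polymerase was matched in the probe annotation used here, and they were not analysed.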

How the data were processed

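The deposited series matrix was used. Its values are log2 signals that the authors computed from the scanned arrays with RMA in the affy package (versions not given in the sources used here), and the PB38 columns include the polysome-content factor of each replicate from the study's methods. Of 22810 probe sets 13513 were listed with 1 gene, 503 with several and 8794 with none. Of those with 1 gene 13436 matched RefSeq by Entrez gene ID. Sequences and coordinates were not used. The members and lists were chosen with earlier results of these data known.

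Contrasts were fitted with lmFit and eBayes of limma 3.58.1 (R 4.3.3) across all probe sets with Benjamini-Hochberg adjustment. Calls required an adjusted p below 0.05 with a change of 2-fold or more, except that the difference between heat effects was called by its adjusted p alone. Summaries used Python 3.11.15 with pandas 2.3.3, and figures matplotlib 3.10.9. The fits had 4 residual degrees of freedom, and 2 with the seedling sample as a block. The study's methods draw total and polysome-bound RNA of a replicate from the same material. Deviations of the same sample correlated over all probe sets with r = 0.762 at 38 °C and 0.786 at 22 °C. Over the 26 genes r was 0.493 at 38 °C and 0.465 at 22 °C. The limma fits were tested on simulated data. Alternatives were other scalings, a filter at a log2 signal of 6, an intensity trend, a test against 1.5-fold, blocks, the factor kept or removed, and each array left out. All 26 genes are named, and of nuclear partners the highest and lowest heat effect in total mRNA of each list. Of the 34 gene symbols of the rule in RefSeq, 8 had no probe set listed with only 1 gene. The number of arrays per group limits the precision.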

Additional observations from a re-analysis of the deposited data

Results flagged for a closer look

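Of the 7 probe sets listed under more than 1 copy of a plastid gene, and so not counted among the 26, 1 of rps12 had both TOT38 arrays above both TOT22 arrays, as had 35.0% of all probe sets. It read 9.11 and 8.48 in TOT38, against 8.23 and 5.25 in TOT22, a mean difference of 2.06 on the log2 scale with the TOT22 replicates far apart. The groups overlapped for the other 6, whose mean differences were 1.17 for the other rps12 probe set, 0.85 for ycf2, 0.82 for rps7, -0.01 for rpl23, -0.04 for ycf1 and -0.09 for rpl2.

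The 25S rRNA control probe set was higher at 38 °C in both populations. It was higher by 3.08 in PB38 than in PB22 with the polysome factor kept, and by 2.03 in TOT38 than in TOT22. It was not tested as a gene of any comparison, and its part in the values of the plastid genes was not tested.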

How the results depend on the processing

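The main fits, without a block and with all arrays, called only rpl32, at 38 °C. Whether called genes kept their sign in the alternatives was thus hardly tested. Signs of uncalled effects changed for 12 of 26 genes in total mRNA without TOT22 replicate 2. With the factor divided out they changed for 16 in polysome-bound mRNA. For the difference between heat effects 12 changed without TOT22 replicate 1. For polysome-bound minus total mRNA at most 4 changed at 22 °C and 1 at 38 °C in any alternative. For the heat effect in polysome-bound mRNA, dividing the factor out gave 1 gene called higher (4.73% of all probe sets) and a median of 0.63. With 1 array left out 0 to 4 genes were called lower, the 4 without PB22 replicate 2, and 4 also without 22 °C seedling sample 2 (37.0% of all probe sets in either fit). The labels do not link replicate numbers across temperatures, though same-numbered deviations correlated over all probe sets (r = 0.523 between TOT38 and TOT22, 0.438 between PB38 and PB22). With that number as a block the heat effect in total mRNA had 3 genes called higher (rpl20, accD and ycf4, adjusted p 0.0158, 0.0111 and 0.0357 in limma), beside 5.24% of all probe sets higher and 8.14% lower. It had 0 to 1 with 1 array left out, and medians of 0.23 to 0.50 in the 8 alternatives that kept all arrays.

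For polysome-bound minus total mRNA, calls depended on the pairing. With the replicate number as a block 7 genes were called lower at 38 °C (1.19% of all probe sets) and 9 at 22 °C (0.482%). With the seedling sample as a block there were 11 at 38 °C (1.34%) and 19 at 22 °C (0.688%). Adding median centring to that block gave 12 at 38 °C (1.47%) and 17 at 22 °C (0.596%), and cyclic loess 11 at 38 °C (1.34%) and 19 at 22 °C (0.64%). The filter on dim probe sets gave 8 at 38 °C (2.19% of those kept) and 18 at 22 °C (1.08%) of the 23 genes it kept. Leaving a seedling sample out of the blocked fit gave 0 to 11 at 38 °C, 11 without either 22 °C sample (1.34% of all probe sets) and 0 without either 38 °C sample (0.0%). Without a block, 0 were called at 38 °C with only the 4 arrays compared and 0 with any 1 array left out (0.0% of all probe sets each time). Keeping the factor at 38 °C, which lowers every PB38 signal, gave 23 and a median of -1.73, beside 30.0% of all probe sets. With 1 array left out the medians at 22 °C ran from -1.85 to -0.56, with -0.56 without TOT22 replicate 1.

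For the difference between heat effects the blocked fit without 22 °C sample 1 called 2 genes higher (rpl22 and rps19) and 1 lower (rpoB), beside 0.951% of all probe sets higher and 1.32% lower, and 0 in either direction without each of the other samples. The settings that leave out a seedling sample, and those that add a scaling or filter to the block, were chosen after seeing the data. With 2 arrays per group, and 1 left where an array was dropped, the lone array was assumed to vary like those of the other groups.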
